A study of Mus musculus with 4 samples.

Results

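Kinesins are motor proteins that walk along microtubules or shorten them at their ends. Members of the family carry vesicles and organelles, others build and divide the mitotic spindle, and a small set works in cilia, where motile axonemes hold a central pair of microtubules and need a fixed length. Trachea and oviduct both hold multiciliated cells, and the series asks, per its title, how GEMC1 (current symbol Gmnc), a geminin relative known to start the multiciliated cell programme, controls their transcripts. The kinesin genes described here were those whose symbol starts with Kif followed by a digit, without Kif3a, Kif3b, Kif11 and Kif20a. The rule found 37 genes, and 34 of them had a probe set of their own among 30668 named genes on the array. They were sorted by known role into 3 kinesins of motile cilia, 2 of primary cilia and centrioles, 10 mitotic kinesins, 11 cargo kinesins, 5 other kinesins, and 3 genes that encode no motor (the antisense RNA Kif16bos and the pseudogenes Kif4-ps and Kif22-ps, whose probe sets may also read Kif4 and Kif22).

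RNA came from freshly dissected whole trachea of male mice aged 39 days and whole oviduct of female mice aged 65 days, wild type (WT) or GEMC1 null, all on a mixed C57BL/6 x 129 background. Each of the 4 groups had 1 Affymetrix array (n = 1) of a number of animals that the labels do not give, so a difference within a tissue has no replicate check, no error and no test, and is given by size alone. Levels are given as log2 RMA signal, and a difference is the level on the null-labelled array minus that on the WT array of the same tissue. Gmnc stood at 5.90 on the WT and 4.63 on the null-labelled trachea array, and at 6.11 and 8.86 on the oviduct arrays. Both trachea values lay below the median of the negative-control probe sets on their array (5.98 and 5.74). Their order is thus a reading at background and does not check the label. The oviduct order goes against the label, and no source used here says which part of the gene was removed, so the arrays are named by their labels. In whole tissue fewer cells of a type and less RNA per cell cannot be told apart.

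Background set a limit for many members. The median of the negative-control probe sets lay between 5.74 and 5.98 on the 4 arrays, and 9 to 12 of the 34 kinesin genes lay below it on each array. The 95th percentile of the negative controls lay between 8.70 and 8.87, a level that 4 kinesin genes passed on at least 1 array and 0 on every array. The level filter asked a gene to reach, on either array of a tissue, the median of that array's probe sets, which 24 kinesin genes did in trachea and 23 in oviduct. Of these, 1 in trachea and 2 in oviduct passed on 1 array only.

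**Figure D1:**
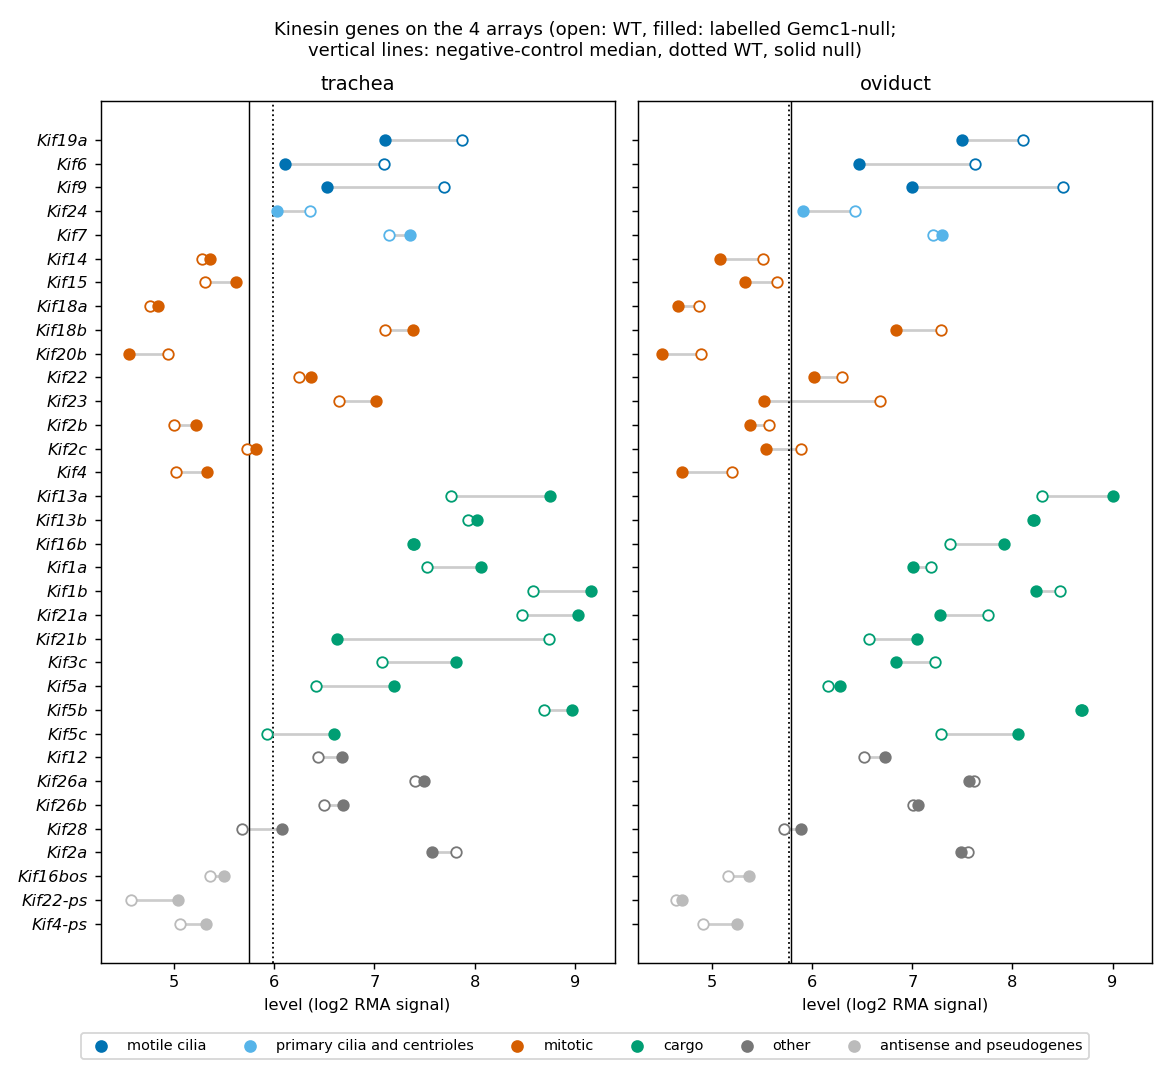
Level of each of the 34 kinesin genes on the WT array (open) and the array labelled Gemc1-null (filled) in trachea and oviduct, as log2 RMA signal with 1 array per group; vertical lines mark the negative-control medians. Kif9, Kif6 and Kif19a lay lower on the null-labelled array in both tissues, and Kif21b differed most, in trachea; levels of different genes come from different probes and are not comparable between rows.

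The kinesins of motile cilia stood lower on the null-labelled array than on the WT array in both tissues. Kif9 (NCBI gene 16578) encodes a kinesin-9 motor tied to the central pair of motile axonemes. Its level was 7.70 on the WT and 6.53 on the null-labelled trachea array, and 8.50 and 7.0 on the oviduct arrays. Both null-labelled arrays were thus below both WT arrays, by 2.24-fold in trachea (log2 difference -1.17) and 2.84-fold in oviduct (-1.51). Among all genes that passed the filter, 6.46% were as low or lower than Kif9 in trachea and 1.54% in oviduct.

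Kif6 (NCBI gene 319991), the other kinesin-9 gene, encodes a motor of motile cilia. It read 7.10 and 6.10 on the trachea arrays and 7.63 and 6.47 on the oviduct arrays, WT first. Its difference was -0.99 in trachea, 1.99-fold and just short of 2-fold (-1.01 with the arrays at a common median), and -1.16 in oviduct, or 2.23-fold. Kif19a (NCBI gene 286942) encodes a kinesin-8 that shortens microtubules at ciliary tips and so limits the length of motile cilia. Its level was 7.87 and 7.10 in trachea and 8.10 and 7.50 in oviduct, again WT first. Kif19a was thus lower on each null-labelled array, by 1.71-fold and 1.52-fold, under the 2-fold size used for counting. On the null-labelled arrays none of these 3 genes lay below the negative-control median.

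Kif27 encodes a relative of Kif7 that acts with the kinase Stk36 in building motile cilia, and it had no probe set of its own. One set, annotated to Kif27 and to the microRNA gene Mir6369, which lies within the Kif27 span in RefSeq, read 6.31 and 5.19 on the trachea arrays and 6.74 and 5.26 on the oviduct arrays. Both null-labelled values were below the negative-control median, and taken against that median the set was at least 1.49-fold lower in trachea and at least 1.92-fold lower in oviduct. A second set, annotated to Kif27 and Gm26555, read 5.76 and 5.84 in trachea and 6.32 and 6.01 in oviduct. The sets thus differ, the brighter of them by mean level showing the smaller differences, and neither is counted as Kif27.

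Over the whole family, 2 of the 24 kinesin genes that passed in trachea were at least 2-fold lower (Kif21b and Kif9), beside 7.74% of all genes that passed, and 0 were at least 2-fold higher, beside 6.33%. The trachea count is near the share of all genes and is no result about the family. By measured level the oviduct arrays had 3 of 23 kinesin genes at least 2-fold lower (Kif9, Kif6 and Kif23), beside 2.75% of all genes, and 0 were higher, beside 0.808%. Kif23 passed the filter on the WT array alone and is bounded at 1.85-fold; with values raised to the negative-control median the count was 2, beside 2.43% of all genes. Kif9 alone was counted in both tissues. At 1.5-fold, 4 were lower in trachea (13.3% of all genes) and 4 higher (11.8%), and in oviduct 4 were lower (5.22%) and 2 higher (2.82%). Kif9, Kif6 and Kif19a were among the lower and Kif13a and Kif5c among the higher in both tissues. The trachea call of Kif9 ended when the arrays were shifted to a common negative-control median, which gave -0.92. That shift raised the median trachea difference over all genes from 0.06 to 0.31.

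The motile cilia kinesins were next set beside other axonemal genes. Their median difference was -0.99 in trachea and -1.16 in oviduct, against 0.06 and 0.05 over all genes measured. By measured level 12 of 12 central pair genes, Kif9 among them, were at least 2-fold lower in each tissue (medians -2.37 and -2.18), 10 in trachea and 11 in oviduct also by their bound. So were 9 of 9 axonemal dynein heavy chains (medians -2.99 and -3.26), 9 also by their bound. Over all genes that passed, 7.74% were at least 2-fold lower in trachea and 2.75% in oviduct. Of the 12 central pair genes, 8 in trachea and 7 in oviduct passed the filter on the WT array alone. Of the 9 dynein heavy chains, 6 in trachea and 7 in oviduct did so. Stk36, the partner of Kif27, read 7.86 and 6.60 in trachea and 8.32 and 7.30 in oviduct, differences of -1.26 and -1.02. The 3 kinesins ranged from -1.17 to -0.77 in trachea, and each dynein heavy chain was lower there by at least 2.735-fold, against 2.24-fold for Kif9. On the null-labelled arrays 8 of the 12 central pair genes in trachea and 7 in oviduct lay below the negative-control median, against 0 of the 3 kinesins. Markers of other cells differed too. Among 7 general epithelial genes 5 passed 2-fold lower in trachea (summed log2 signal 12.21 on the WT and 10.94 on the null-labelled array), and 0 of 7 in oviduct (12.84 and 13.07). In trachea 8 of 8 airway secretory genes were at least 2-fold lower (median -5.31, summed log2 signal 15.46 and 11.95). Of these, 2 passed the filter on the WT array alone. In the same tissue 7 of 7 basal and squamous genes were at least 2-fold higher (median 5.01, summed log2 signal 10.24 and 14.86), beside 6.33% of all genes. Among these 7, 2 passed the filter on the null-labelled array alone. In oviduct ovary markers were lower, as given with the mitotic kinesins. The part of these cells in the motile cilia kinesin differences was not tested.

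**Figure D2:**
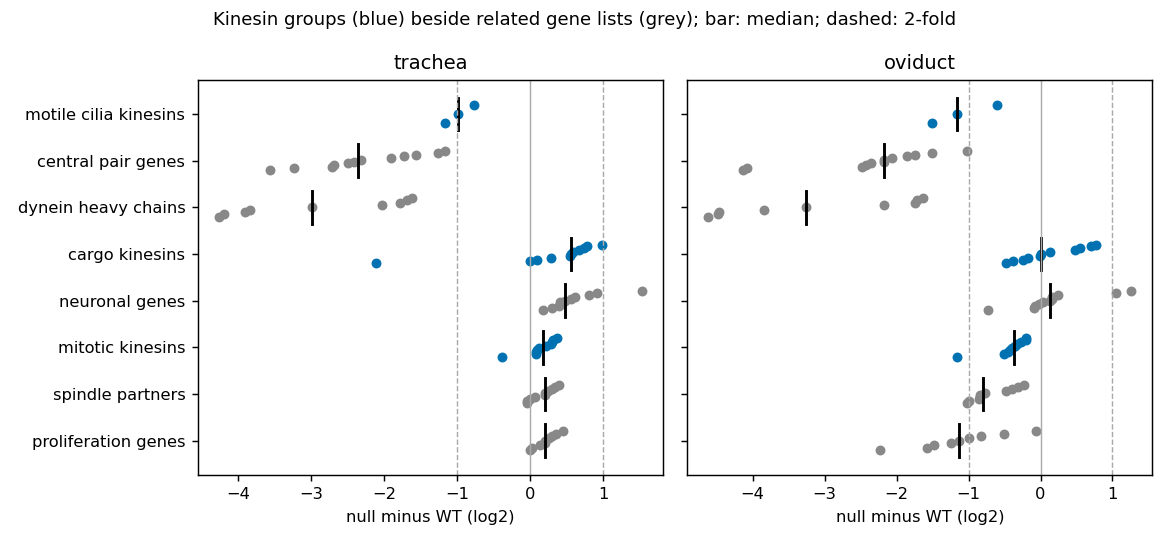
Difference between the null-labelled and the WT array (log2, 1 array per group) for each gene of 3 kinesin groups in blue and of 5 related lists in grey, in trachea and oviduct, with the median as a bar. The motile cilia kinesins lay below 0 in both tissues but nearer to 0 than the dynein heavy chains, and the mitotic kinesins lay below 0 in oviduct together with the spindle and proliferation lists.

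Kinesins of primary cilia and centrioles had differences under 2-fold. Kif7 (NCBI gene 16576), a kinesin-4 that works in Hedgehog signalling at the ciliary tip, read 7.14 and 7.35 on the trachea arrays and 7.21 and 7.30 on the oviduct arrays, WT first. These 4 values spanned less than the Kif9 difference in either tissue. Kif24 (NCBI gene 109242), a kinesin-13 at centrioles that holds back ciliogenesis, read 6.36 and 6.03 in trachea and 6.43 and 5.90 in oviduct. It was lower on both null-labelled arrays, by 1.26-fold and 1.44-fold, and in oviduct it passed the filter on the WT array alone. Kif17, a kinesin-2 motor of cilia and dendrites, was read only by a set shared with Sh2d5, at 6.76 and 6.89 in trachea and 6.94 and 6.82 in oviduct. Of 8 Hedgehog pathway genes, Kif7 included, 1 was at least 2-fold lower in trachea (7.74% of all genes) and 1 in oviduct by measured level (2.75%), and 0 were higher. In both tissues that gene was Hhip, a Hedgehog-binding inhibitor, with differences of -1.87 in trachea and -1.01 in oviduct. The oviduct value of Hhip ends below the negative-control median, which gives at least 1.94-fold.

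The mitotic kinesins differed between tissues in sign, which was not tested. In oviduct 10 of 10 had a difference below 0 (median -0.37), where 39.7% of all genes were below 0. In trachea 9 of 10 had a difference above 0 (median 0.17), where 41.2% of all genes were below 0, and Kif20b, a cytokinesis motor, stood at -0.38. Kif20b lay below the negative-control median on all 4 arrays, so its value is a reading at background. The family's dimness limits these values: 6 of the 10 lay below the negative-control median on both arrays of each tissue, and 3 of 10 passed the level filter in either tissue. With values raised to that median, the medians became -0.24 in trachea and 0.021 in oviduct, the same as the medians of all genes under that floor, since a gene raised on both arrays takes the difference between the 2 floors.

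Kif23 (NCBI gene 71819), which encodes a kinesin-6 of the central spindle needed for cytokinesis, was the mitotic kinesin with the largest difference. It read 6.64 on the WT and 7.01 on the null-labelled trachea array, and 6.68 and 5.52 on the oviduct arrays. The null-labelled oviduct array was thus the low one of 4, with a difference of -1.16. That array lay below its negative-control median, and against the median the bound on the Kif23 difference was at least 1.85-fold, which does not reach 2-fold. Kif18b, a kinesin-8 at the tips of spindle microtubules, read 7.11 and 7.39 in trachea and 7.29 and 6.84 in oviduct. Kif22, the chromosome-arm motor, read 6.25 and 6.37 in trachea and 6.30 and 6.02 in oviduct. Both were lower on the null-labelled oviduct array and higher on the null-labelled trachea array, by under 1.5-fold.

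Kif2c, a kinesin-13 that removes tubulin at kinetochores, stood at 0.08 and -0.35, trachea first. Those of the chromokinesin Kif4 were 0.31 and -0.50. Kif14, a cytokinesis motor, stood at 0.08 and -0.43, and Kif15, a spindle motor, at 0.31 and -0.32. Kif18a, which damps chromosome movement at metaphase, stood at 0.09 and -0.20, and Kif2b at 0.22 and -0.20. Of these 6 genes Kif2c reached the negative-control median on the null-labelled trachea array and the WT oviduct array, and the other 5 lay below it on all 4 arrays.

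Genes that act with these motors were lower on the same oviduct array. Of 10 cytokinesis and spindle partners, 10 had differences below 0 in oviduct (median -0.80), where 39.7% of all genes were below 0. Of the 8 partners that passed the filter, 0 passed 2-fold and 5 had passed on the WT array alone. On the null-labelled oviduct array 6 of the 10 lay below the negative-control median. Ect2, the exchange factor that the centralspindlin complex of Kif23 recruits, read 6.31 and 5.32 in oviduct and ended below the negative-control median, at least 1.44-fold lower. Bub1, a spindle checkpoint kinase, lay below that median on all 4 arrays. Of 9 proliferation genes 5 were at least 2-fold lower in oviduct by measured level (median -1.13), beside 2.75% of all genes. By their bound 4 were, among them the proliferation marker Mki67 (at least 3.95-fold) and the cyclin genes Ccnb2 (2.97-fold) and Ccna2 (2.78-fold). Of the 9 proliferation genes 4 passed the filter on the WT array alone and 3 ended below the negative-control median. In trachea 0 of 10 partners and 0 of 9 proliferation genes passed 2-fold (medians 0.21 and 0.20). Of 8 ovary somatic markers 7 passed 2-fold lower on the null-labelled oviduct array by measured level and 6 also by their bound. Their summed log2 signal was 13.62 on the WT and 9.74 on the null-labelled array. Of the 8 markers 3 passed the filter on the WT array alone, and 3 ended below the negative-control median. Of 7 oocyte markers 5 passed 2-fold by measured level and 3 also by their bound (summed log2 signal 9.63 and 8.16), all 6 that passed the filter did so on the WT array alone, and 7 of 7 ended below that median. The part of ovarian cells in the lower mitotic kinesins was not tested.

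**Figure D3:**
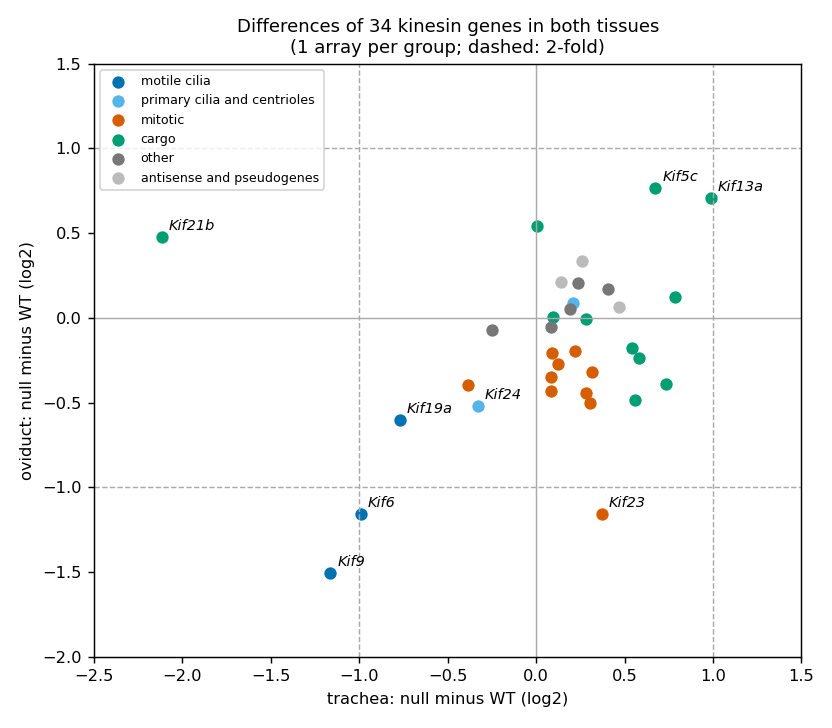
Difference between the null-labelled and the WT array in trachea (x axis) and oviduct (y axis), log2, for 34 kinesin genes coloured by role, with 1 array per group and dashed lines at 2-fold. Kif9, Kif6, Kif19a and Kif24 lie toward the lower left, and Kif13a and Kif5c toward the upper right. Kif21b in trachea and Kif23 in oviduct lie past 2-fold below 0 by measured level, each above 0 in the other tissue.

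Kif6 and Kif23 are a motile cilia and a mitotic member, each past 2-fold in oviduct by measured level (Kif23 with a bound under 2-fold), whose promoter windows reach clear of the annotated transcripts, and these are printed for comparison. They are RefSeq sequence of build GRCm38.p6, cut at the outermost annotated start of the gene and read 5′ to 3′ on its strand, with capitals for matches, on either strand, to GTTGCC (a half-site of the RFX box of ciliary genes), CCAAT (the NF-Y box) and TTTGAA (the cell cycle homology region). The Kif6 stretch is chr17:49614922-49615097 on the plus strand, the 176 bases before the start, and holds 1 CCAAT. The Kif23 stretch is chr9:61946811-61947049 on the minus strand, 239 bases, and holds 1 GTTGCC. A window of 250 bases of Kif23 also holds 1 CCAAT match, which lies past the end of the printed stretch.
Kif6: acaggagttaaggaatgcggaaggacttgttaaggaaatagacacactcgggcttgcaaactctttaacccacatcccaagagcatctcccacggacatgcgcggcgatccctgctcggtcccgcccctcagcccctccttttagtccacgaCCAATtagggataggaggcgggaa
Kif23: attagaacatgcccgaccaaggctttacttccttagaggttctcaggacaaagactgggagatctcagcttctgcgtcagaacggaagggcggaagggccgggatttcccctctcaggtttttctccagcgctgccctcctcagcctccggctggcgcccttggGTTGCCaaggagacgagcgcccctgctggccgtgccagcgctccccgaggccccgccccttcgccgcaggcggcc

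Windows of 250 bases before a listed start were searched, and 29 kinesin genes had one. For a kinesin with several listed starts the first listed was used. CCAAT or its reverse complement ATTGG was found in 6 of 10 mitotic kinesins (Kif14, Kif18b, Kif22, Kif23, Kif2b and Kif4) and 33.8% of all 32851 windows. It was in 12 of the 29 kinesins, among them 2 of 3 motile cilia kinesins with a window (Kif6 and Kif27) and 1 of 8 cargo kinesins. Kif19a had no window. Kif27 is placed with the motile cilia kinesins here by role, although it has no probe set of its own. TTTGAA or TTCAAA was found in 4 of 10 mitotic kinesins (Kif14, Kif15, Kif22 and Kif2c), 1 of 3 motile cilia kinesins (Kif27), 0 of 8 cargo kinesins and 16% of all windows. GTTGCC or GGCAAC was found in 2 of 10 mitotic kinesins (Kif18a and Kif23), 2 of 8 cargo kinesins (Kif16b and Kif3c) and 10.4% of all windows. It was in 0 of the 3 windows of Kif6, Kif9 and Kif27, which says only that these letters are not in those windows. The Kif27 window lies inside the gene's span, and only 30 of the 250 bases of the Kif9 window lie before its outermost start. Kif9 has 2 listed starts, and the window of the other start was not searched. The 3 motifs share no overlapping match in the printed stretches, and a match is a description of letters, not of binding.

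Among the cargo kinesins Kif21b departed from the rest. Kif21b (NCBI gene 16565) encodes a kinesin-4 known from neurons and lymphocytes. It read 8.75 and 6.63 in trachea and 6.57 and 7.04 in oviduct, WT first. The WT trachea array was thus the high one of 4, and the difference was -2.12 in trachea (4.34-fold lower) and 0.48 in oviduct (1.39-fold higher). In trachea 2.51% of all genes that passed were as low or lower. Lymphocyte markers had the same high array. Of these 6 genes 6 passed 2-fold lower in trachea, beside 7.74% of all genes, and 4 of the 6 passed the filter on the WT array alone. Their summed log2 signal was 12.49 on the WT trachea array against 8.51, 8.56 and 8.83 on the others. Among them Cd79b, a part of the B cell receptor, read 10.90 and 6.55 in trachea, while Ms4a1 and Ptprc ended below the negative-control median there. The part of lymphocyte content in the Kif21b difference was not tested.

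The other 10 cargo kinesins all had a trachea difference above 0, Kif16b by only 0.004, where 41.2% of all genes were below 0. With Kif21b, which went the other way, the group's median was 0.56, beside 0.06 over all genes. None of these 10 reached 2-fold. Kif13a (NCBI gene 16553), a kinesin-3 of recycling endosomes, came closest: it read 7.77 and 8.75 in trachea and 8.30 and 9.0 in oviduct, WT first. It was 1.98-fold higher in trachea and 1.63-fold higher in oviduct, and both null-labelled arrays were above both WT arrays. Repeating the quantile normalization carried its trachea difference past 2-fold, to 1.06, and a shift to a common negative-control median to 1.23. Kif5c (NCBI gene 16574), a neuronal kinesin-1 heavy chain, read 5.93 and 6.60 in trachea and 7.29 and 8.05 in oviduct. Its WT trachea level lay below the negative-control median, which makes it at least 1.53-fold higher there, and it was 1.70-fold higher in oviduct.

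The remaining cargo kinesins differed by under 2-fold in each tissue, and not always the same way in both. Kif5a, the other neuron-enriched kinesin-1 gene, read 6.41 and 7.20 in trachea and 6.16 and 6.28 in oviduct. Kif3c, a kinesin-2 subunit, read 7.08 and 7.81 in trachea but 7.23 and 6.84 in oviduct. Kif21a, a kinesin-4 at the cell cortex, read 8.48 and 9.03 in trachea and 7.76 and 7.27 in oviduct. So Kif3c and Kif21a stood higher on the null-labelled array in trachea and lower in oviduct, by under 2-fold throughout. Kif1a and Kif1b, kinesin-3 motors of synaptic vesicle precursors and mitochondria, had differences of 0.54 and 0.58 in trachea and of -0.18 and -0.24 in oviduct. Kif16b, a motor of early endosomes, stood at 0.00 in trachea and 0.54 in oviduct. Kif5b, the ubiquitous kinesin-1 heavy chain, stood at 0.28 in trachea, and Kif13b, which carries membrane cargo, at 0.09; both were within 0.01 of 0 in oviduct. The shared probe set of Kif1c, a Golgi-linked kinesin-3, and Mir6925 read 8.37 and 9.28 in trachea and 8.11 and 8.24 in oviduct.

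Neuronal and neuroendocrine markers were above 0 in trachea in 11 of 11 genes (median 0.48; 41.2% of all genes were below 0), 1 of them, Snap25, past 2-fold, and their summed log2 signal was 10.33 on the WT and 11.01 on the null-labelled array. In oviduct the same list had 7 of 11 above 0 (median 0.13), near the share of all genes, of which 39.7% were below 0, with Snap25 and Chga past 2-fold. Of the neuronal markers Elavl4 and Nefm lay below the negative-control median on all 4 arrays. Skeletal muscle markers were at least 2-fold higher in 9 of 9 genes in trachea (summed log2 signal 10.18 and 15.40) and in 0 of 9 in oviduct. In trachea 5 of the 9 passed the filter on the null-labelled array alone. Over all genes that passed, 6.33% were at least 2-fold higher in trachea and 0.808% in oviduct. The part of nerve or muscle in the higher cargo kinesins of trachea was not tested.

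The other kinesins and the genes that encode no motor had differences under 1.5-fold. Kif2a, a kinesin-13 that shortens microtubules in interphase and in neurites, stood at -0.25 in trachea and -0.07 in oviduct. Kif26a and Kif26b, kinesin-11 proteins that act in signalling, stood at 0.08 and 0.19 in trachea and at -0.05 and 0.05 in oviduct. Kif12, a kinesin of renal and biliary epithelium, stood at 0.24 and 0.21, and Kif28 at 0.41 and 0.17. Kif28 lay below the negative-control median on both WT arrays, which bounds it at no less than 1.07-fold and 1.08-fold higher. It passed the filter in trachea through the null-labelled array alone, and did not pass in oviduct. Kif16bos, Kif4-ps and Kif22-ps lay below the negative-control median on all 4 arrays.

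Between the WT tissues 23 kinesin genes passed the filter. Of these, Kif21b was 4.53-fold higher in trachea (6.54% of all genes passed 2-fold higher) and Kif5c at least 2.47-fold lower in trachea (4.67% at least 2-fold lower). These counts are near the shares of all genes and are no result about the family. At 1.5-fold Kif21a was also higher in trachea, by 0.72 on the log2 scale (11.8% of all genes), and Kif9 lower (10.7%). The motile cilia kinesins were lower in WT trachea than in WT oviduct in 3 of 3, by 0.81 for Kif9, 0.53 for Kif6 and 0.23 for Kif19a on the log2 scale, where 60.1% of all genes were lower. Of the central pair genes 10 of 12 lay the same way (median -0.45). Tissue, sex and age changed together between these arrays and cannot be told apart.

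**Figure D4:**
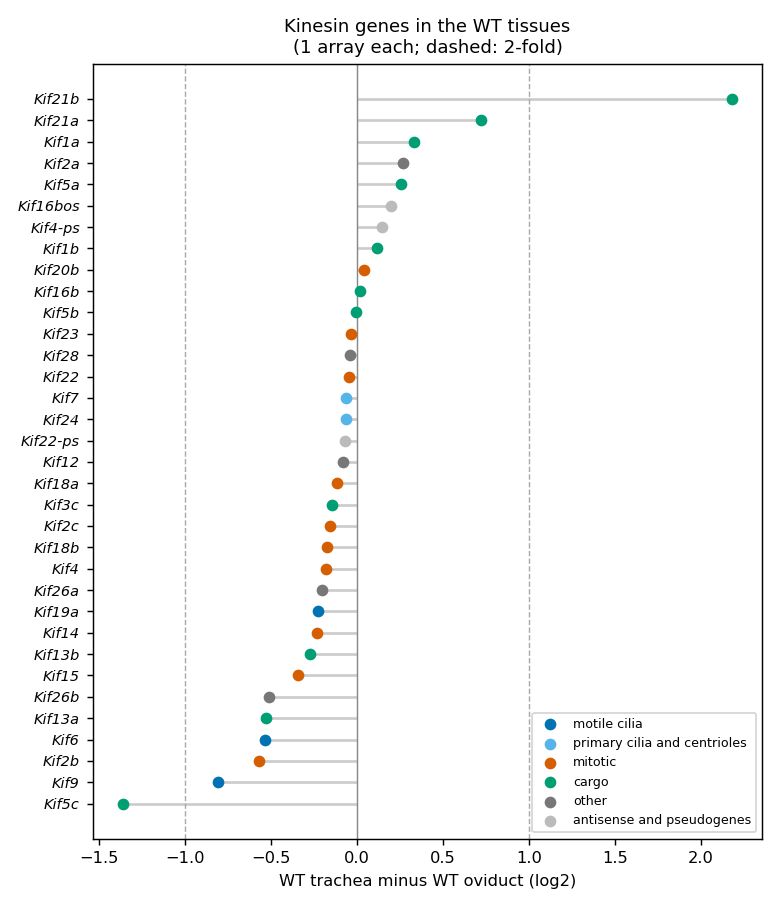
Level on the WT trachea array minus level on the WT oviduct array (log2) for each of 34 kinesin genes, ordered by this difference and coloured by role, with 1 array per tissue and dashed lines at 2-fold. Kif21b, at 2.18, and Kif5c, at -1.36, lie beyond 2-fold, and the other 32 genes within it.

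A fit over all 4 arrays (limma, tissue as a block, 1 residual degree of freedom) asked for a genotype difference shared by trachea and oviduct, with 2 arrays per genotype. Of 24 kinesin genes tested among 20965, 0 passed a Benjamini-Hochberg adjusted p of 0.05, as did 0% of all genes. Unadjusted p-values under 0.05 were found for 3 lower kinesins, Kif9, Kif6 and Kif19a, beside 2.7% of all genes, and 2 higher, Kif13a and Kif5c, beside 0.801%. Kif9 had a shared log2 difference of -1.34 (SE 0.180, limma adjusted p = 0.710), lower in 2 of 2 tissues. Kif6 had -1.08 (SE 0.156, limma adjusted p = 0.774), also lower in 2 of 2. Kif19a stood at -0.69 (SE 0.156), Kif13a at 0.85 (SE 0.170) and Kif5c at 0.72 (SE 0.15), each with a limma adjusted p of 0.829 and the same sign in 2 of 2 tissues. Kif21b and Kif23, whose signs differ between tissues, had SEs of 0.794 and 0.482. Over the alternatives run the lowest adjusted p of any kinesin lay between 0.614 and 0.998. These SEs combine the disagreement between the tissues with a spread that limma borrows from all genes, and hold no spread between replicate animals.

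Over all 34 genes the sign of the difference was opposite in trachea and oviduct for 16. Of the 34 genes, 10 passed the level filter in neither tissue, so part of these signs are read at background. The share over all genes was not computed, and the count is no result about the family. The tissue differences correlated across the 34 genes at Pearson r = 0.307, a description over genes that share the same 4 arrays, beside 0.164 over 18857 genes that passed in both tissues.

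Among 10 other kinesin genes, outside the rule, 0 were at least 2-fold different in trachea. In oviduct 1 passed 2-fold by measured level, the spindle bipolarity motor Kif11, and its bound against the negative-control median, at least 1.70-fold, does not reach 2-fold. Kif20a read 6.60 and 5.85 in oviduct, and Cenpe, the kinetochore motor, lay below the negative-control median on all 4 arrays. Kif3a and Kif3b, the heterodimer that drives intraflagellar transport toward the ciliary tip, had differences of 0.06 and -0.73 in trachea and of -0.35 and -0.01 in oviduct, all under 2-fold.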

How the data were processed

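Each of 4 samples was 1 array. The deposited table holds 1 log2 value per probe set and array, made with RMA per the submitters' processing notes; the sources used here give no version, settings or genome build. In 100% of cells 2 raised to the deposited value was whole at 6 significant digits (relative tolerance 1e-09), as for a log2 taken again of an RMA value, so 2 raised to the deposited value served as log2 signal.

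Of 72688 probe sets 6732 were controls. Names came from GEO's platform annotation, updated through RefSeq (GRCm38.p6): 31213 had 1 gene, 1537 several or unresolved and 33206 were not listed. The probe set with the highest mean stood for a gene; 0 kinesins had more than 1. The level filter was percentile 50 and the size for counting 2-fold. A fold whose lower level was under the array's negative-control median (5222 sets) is a bound against that median. limma 3.58.1 in R 4.3.3 was tested on simulated data. Members and lists were chosen with earlier results of these data known; the named genes are all members, and of each other list those past 2-fold or the 2 largest; other names were added for their role with values seen. List members without a set of their own were left out. Alternatives changed the filter, size, scaling, floor, probe set rule and names. The number of arrays limits every value.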

Additional observations from a re-analysis of the deposited data

Results flagged for a closer look

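Kif21b differed in opposite directions in the tissues, 4.34-fold lower on the null-labelled array in trachea and 1.39-fold higher in oviduct, with a trachea difference minus oviduct difference of -2.60 on the log2 scale. Kif23 also went opposite ways, higher by 0.37 in trachea and lower in oviduct, with a trachea difference minus oviduct difference of 1.53, where background limits the oviduct value. With 1 array per group neither difference between tissues was tested.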

How the results depend on the processing

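Each group has 1 array, so there were no replicates to pair within a tissue. The only pairing is that of the limma fit, which sets null-labelled against WT within each tissue through its tissue block. Leaving out an array leaves no comparison in its tissue. Symbols as printed in the annotation, the mean of probe sets, every probe set on its own, no level filter and a filter at percentile 25 moved no count by over 1.5 times. At 1.5-fold the kinesin counts were 4 lower and 4 higher in trachea, 4 lower and 2 higher in oviduct, and 2 lower and 2 higher between the WT tissues. At 3-fold they were 1 lower in trachea, 0 lower in oviduct and 0 lower between the WT tissues. With the arrays at a common negative-control median, trachea had 1 lower and 2 higher, WT trachea against WT oviduct 2 lower, and the trachea medians became 0.45 for all kinesins, -0.75 for those of motile cilia, 0.41 for mitotic and 0.80 for cargo kinesins; the split of all called trachea genes went from 55% to 40.4% lower and that between the WT tissues from 41.7% to 57.8%. Repeated quantile normalization gave 1 higher in trachea, and a shift to a common array median took Kif6 in trachea to -1.01, for 3 lower. Values floored at the negative-control median gave medians of 0.0446 (trachea) and 0.0209 (oviduct) for all kinesins and -0.24 and 0.0209 for the mitotic ones, and ended the 2-fold call of Kif23 in oviduct (-0.89). With shared probe sets counted, an alternative chosen after seeing the data, the motile cilia medians were -0.88 in both tissues. In limma 0 kinesins passed adjustment under any of the 4 alternatives, and without the tissue block Kif5c left the unadjusted list. No direction of a kinesin difference past 2-fold reversed.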

Other observations

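Kinesin-14 motors, which walk toward microtubule minus ends, and the light chains and partners of kinesins had differences under 1.5-fold in both tissues. Kifc1, Kifc2, Kifc3 and Kifc5b had differences of -0.02, 0.29, 0.28 and -0.04 in trachea and of 0.13, 0.05, -0.20 and 0.06 in oviduct. Kifc1 and Kifc5b are near-identical in sequence and uncertain as separate genes. Of 5 partners and light chains 0 were at least 2-fold different in either tissue. Klc3, a light chain, read 7.58 and 8.14 in trachea and 7.67 and 8.01 in oviduct, and Kifap3, the kinesin-2 adaptor, read 7.20 and 7.63 in trachea and 8.09 and 7.95 in oviduct, WT first.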
